A study of Mus musculus with 15 samples.

Results

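Crosslink sites of wild-type tristetraprolin (TTP) before and after 1 h of lipopolysaccharide (LPS) were compared to ask which genes and regions gained, kept or lost TTP sites while macrophages were being activated. The 2 deposited lists of GFP-TTP sites, without LPS (0 h) and after 1 h of LPS, were chosen by their labels and held 15994 and 25960 sites, or 41954 of the 162273 sites in the 6 lists of the series. The sites lay at 36636 distinct positions. All cells were immortalised C57BL/6 bone marrow-derived macrophages that lacked endogenous TTP and carried human Myc and an activated Ras oncogene. They expressed the TTP coding sequence fused to GFP from a doxycycline-inducible promoter, without the regulatory 3′UTR of the TTP gene. Both groups received doxycycline for 6 h, and the 1 h group also received LPS at 1 µg/ml. The 0 h group comprised 2 samples and the 1 h group 4.

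TTP, encoded by Zfp36, is a zinc finger protein that binds AU-rich elements in 3′UTRs, whose core is the pentamer AUUUA, and recruits deadenylases that start decay of the bound mRNA. Its best known targets in macrophages are mRNAs of cytokines and chemokines. LPS activates the kinases p38 and MK2, and MK2 phosphorylates TTP, which is known to weaken its decay activity. In iCLIP, UV light links protein to RNA, reverse transcription stops at the link, and each stop that carries its own random barcode counts as 1 cDNA at the crosslinked nucleotide.

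The 0 h list held 33587 cDNAs and the 1 h list 99263, and sites with a single cDNA made up 66.9% and 60.4% of them. The values were sums over the libraries of a group, so no difference could be set against a spread between replicates. Every test compared 2 pooled lists, and its intervals cover counting error alone. The header of the 1 h list carried a peak-calling mark that the 0 h header lacked, and the number of pooled libraries also differed, so time and these differences cannot be told apart. More RNA of a gene and more TTP bound per RNA molecule cannot be told apart either. Of 17 macrophage marker genes, 3 had a cDNA at 0 h and 7 at 1 h, whereas 1 of 26 marker genes of other cell types had a cDNA in each list. A marker without cDNAs says nothing about its expression, since the lists hold crosslinked RNA alone.

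The sequences around the leading 3′UTR sites are given first, because they show which letters TTP crosslinked to in mRNAs with higher, similar and lower shares at 1 h. Each window has 29 nt, was read 5′ to 3′ from the GENCODE M21 transcript with the longest 3′UTR (build GRCm38), and is centred on the leading site, which is base 15. Complete copies of AUUUA are in capitals. The windows below belong to mRNAs whose share of 3′UTR cDNAs was higher at 1 h.
Tnf, chr17:35199646-35199674, minus strand: cuuaugaauguAUUUAuuuggaaggccgg
Cxcl2, chr5:90905845-90905873, plus strand: agcaauuguuuugucaugccuuuucgugu
Dusp1, chr17:26505868-26505896, minus strand: uuuuaccuuuAUUUAuuuuuguguagguc
Ccl2, chr11:82037212-82037240, plus strand: aaacuuAUUUAacuuauugauguuauggu
Ier3, chr17:35822538-35822566, plus strand: guaauAUUUAuucuaacuuaugcaggggu
Atp6v0b, chr4:117884563-117884591, minus strand: gcccuacuguuAUUUAuugcugguuuucc
Gdf15, chr8:70629456-70629484, minus strand: uuauuaauauuauuaAUUUAuuggggucg
Nlrp3, chr11:59566867-59566895, plus strand: uacugcuuucuuaAUUUAaaaauguaucu
Plk2, chr13:110400681-110400709, plus strand: uuuuuuugguuauuuuugaauacacuugu
Actb, chr5:142903263-142903291, minus strand: uuuuguuuuuaauuucugaauggcccagg
Those windows are centred on the leading 1 h site. The next windows come from mRNAs that led both lists and whose shares were not called different. For Mdm2 the leading 0 h site is shown, and for Ybx3 the leading 1 h site. Windows around the leading 1 h site of Mdm2 (417 nt from the stop codon) and the leading 0 h site of Ybx3 (519 nt) held no AUUUA.
Mdm2, chr10:117689747-117689775, minus strand: uuguauAUUUAaguuauugaaauucugaa
Ybx3, chr6:131364947-131364975, minus strand: aauuuuaugcccuuAUUUAuuccuaggau
The last windows come from mRNAs with a lower share at 1 h and are centred on the leading 0 h site.
Hist1h4d, chr13:23581907-23581935, plus strand: cggcuaaacguacucAUUUAuuuuucuuc
Hist1h3c, chr13:23745060-23745088, minus strand: aaugguuuuuaugcuAUUUAaaaaaaggc
Hist1h4a, chr13:23760816-23760844, minus strand: acuuuuuuaauuuguauuuucuaaccaaa
Pfn1, chr11:70651876-70651904, minus strand: guuuuuuggucuuuuuuuuuuuuuuuuuu
Arl8a, chr1:135155633-135155661, plus strand: auauauauuuuaauuuuuuaAUUUAagca
Dkc1, chrX:75109657-75109685, plus strand: gaauguaauuuguaguuuuuuuuuuuuua
Cstb, chr10:78427552-78427580, plus strand: gcauccuuccaaauaauuauuuucagaaa
None of these windows occurred in a transcript of another gene in the annotation. The printed windows are a selection. Leading windows of Lars2, Spp1, Fnbp1, Gpnmb, Lamp2 and Larp1, and that of Ccl3 at 1 h, held no AUUUA and are not printed. Unprinted windows of Susd6 and of Ccl3 at 0 h held a copy.

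Messenger RNA regions gained sites outside the 3′UTR during the first hour. The share of cDNAs in coding sequence (CDS) rose from 0.741% (249 cDNAs) to 1.5% (1488 cDNAs), a difference of 0.758 percentage points with a Newcombe 95% interval of 0.635 to 0.874. The share in 5′UTRs rose from 0.319% (107 cDNAs) to 1.05% (1043 cDNAs), a difference of 0.732 points (0.642 to 0.817). Genes with a CDS site numbered 61 at 0 h and 344 at 1 h, of which 23 were in both lists. Genes with a 5′UTR site numbered 17 and 190, with 11 in both. The 3′UTR cDNAs numbered 4369 at 0 h and 9558 at 1 h, or 2185 and 2390 for each pooled library. Their share of the list fell from 13.0% to 9.63%, a difference of -3.38 points (-3.79 to -2.98). With sites in place of cDNAs as the unit, the 3′UTR share was higher at 1 h instead, 21% against 26.1%, so its direction rests on how cDNAs pile up at single sites. Within 3′UTR, CDS and 5′UTR together, the 3′UTR held 92.5% of cDNAs at 0 h and 79.1% at 1 h.

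**Figure D1:**
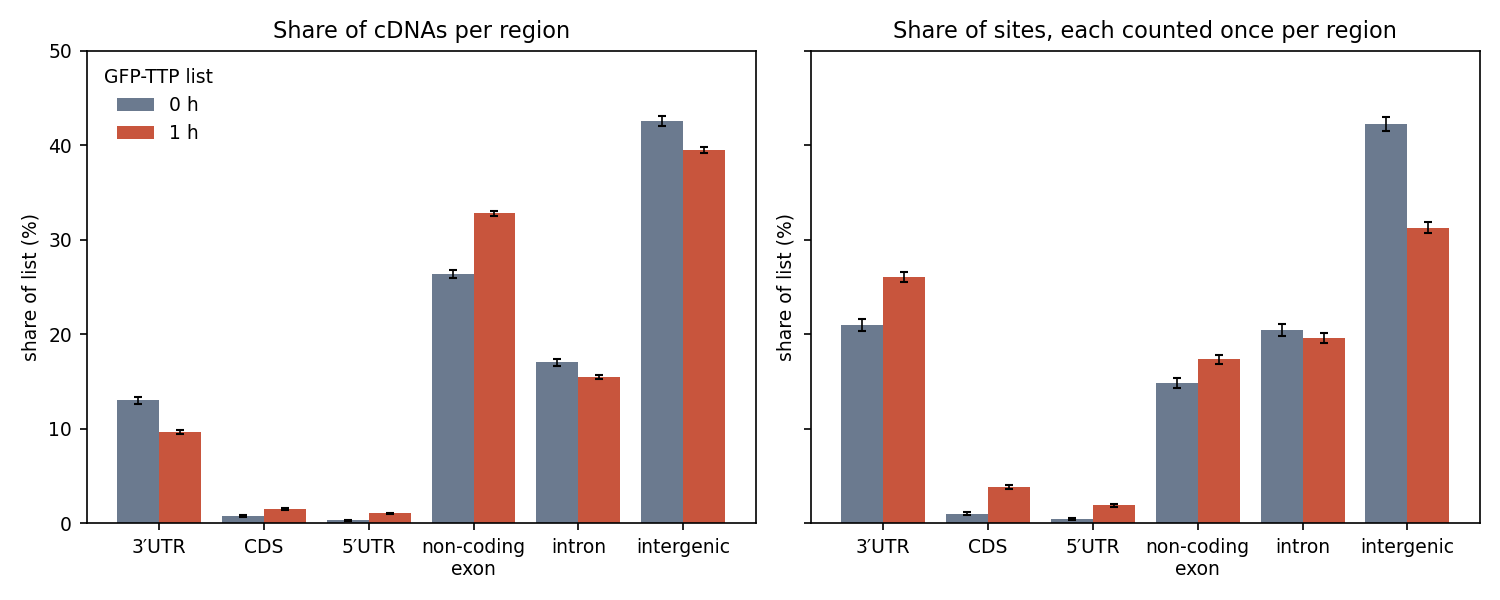
Share of cDNAs (left) and of sites counted once each (right) in 6 annotated regions, in percent of each list, for GFP-TTP at 0 h and 1 h of LPS; bars carry Wilson 95% intervals (counting error). CDS and 5′UTR shares were higher at 1 h in both panels, whereas the 3′UTR share was lower at 1 h by cDNAs (13.0% against 9.63%) and higher by sites (21% against 26.1%).

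Exons of non-coding genes held 26.4% of cDNAs at 0 h and 32.8% at 1 h, which turned on a chromosome 17 locus (39842913 to 39848888, GRCm38) that resembles ribosomal RNA. This locus held 4965 cDNAs at 0 h and 28443 at 1 h, 14.8% and 28.7% of the lists. Without it, the share in non-coding exons fell by 5.05 points, and the shares of introns and of intergenic sequence rose by 1.78 and 2.71 points, whereas they fell by 1.5 and 3.03 points with it. The 3′UTR share fell either way, from 15.3% to 13.5% without the locus.

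The set of mRNAs with a TTP site in the 3′UTR was larger at 1 h and overlapped in part with the set at 0 h. Such genes numbered 738 at 0 h and 1295 at 1 h, where 366 were kept, 929 were gained and 372 were lost. The kept genes made up 49.6% of the 0 h genes (Wilson interval 46.0% to 53.2%) and 28.3% of the 1 h genes (25.9% to 30.8%). They held most of the cDNAs, 67.8% of the 3′UTR cDNAs at 0 h and 60.8% at 1 h. Lost and gained genes had a median of 3 cDNAs each, so most of them were near the limit of what the lists could show. By counting error, a count of 0 allows up to 3 cDNAs, or 0.0687% of the 3′UTR cDNAs at 0 h and 0.0314% at 1 h. The lists hold only sites past a false-discovery threshold, so cDNAs at sites that missed it are not covered by this limit. If the 1 h 3′UTR cDNAs had been as few as those at 0 h, 760 gained, 333 kept and 405 lost genes would be expected. With at least 5 cDNAs required in a list, 294 genes were gained, 137 kept and 136 lost, and the kept share of the 0 h genes was 50.2%.

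For each gene with at least 10 cDNAs, its 3′UTR cDNAs were set against all other 3′UTR cDNAs by Fisher's exact test (two-sided), with Benjamini-Hochberg adjustment over 276 genes. Tnf and 6 of the 7 tested chemokines had a higher share at 1 h, and the 3 tested histone mRNAs had a lower one. In all, 66 genes (23.9%) were called higher and 65 (23.6%) lower, so 131 (47.5%) were called in either direction. Of the 276 tested genes, 57 had 0 cDNAs at 0 h and 14 had 0 at 1 h. These met the minimum of 10 cDNAs through a single list, so their calls follow in part from that minimum. The median ratio of shares, 1 h over 0 h, was 0.791 over all tested genes. With all cDNAs of the lists as the reference, 32 genes were called higher and 93 lower, and without the chromosome 17 locus in that reference 36 and 75. The 3′UTR cDNAs were also less evenly spread at 1 h, where the 10 leading genes held 25.1% of them, against 14.6% at 0 h.

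Tnf, the cytokine whose AU-rich element is the textbook target of TTP, led the change. Its 3′UTR (ENSMUSG00000024401.14, chromosome 17, 35199381 to 35200144) held 53 cDNAs at 0 h and 727 at 1 h, a ratio of shares of 6.27 (exact 95% interval 4.74 to 8.45, Fisher exact test, adjusted p = 1.88e-63). With each site counted once the ratio was 2.03 (adjusted p = 0.00172, Fisher exact test), so its size rests largely on cDNAs at the same sites. Tnf alone made up 7.61% of all 3′UTR cDNAs at 1 h. All sites lay between 421 and 666 nt from the stop codon in a 3′UTR of 764 nt, and they filled more of that stretch at 1 h. The 32 sites at 0 h spanned 448 to 662 nt and the 131 sites at 1 h 421 to 666 nt. An AUUUA lay wholly within 20 nt of 27 of the 32 sites at 0 h and of 70 of the 131 at 1 h. The printed window, which holds the AUUUA just downstream of the cluster of overlapping copies, carried 25 cDNAs at 0 h and 412 at 1 h, or 47.2% and 56.7% of the Tnf 3′UTR cDNAs. The counts for single stretches that follow reach 20 nt beyond the ends of each stretch, a wider rule than AUUUA wholly within 20 nt. Within 20 nt of the cluster of 5 copies (440 to 466 nt from the stop codon) lay 30 of 53 cDNAs at 0 h and 484 of 727 at 1 h. Within 20 nt of the next copy (482 to 486 nt) lay 32 and 527. These stretches overlap each other and the printed window, so many cDNAs were counted in both and cannot be credited to the cluster alone. Around the most distal copy (631 to 635 nt) lay 14 cDNAs at 0 h and 16 at 1 h.

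Chemokine mRNAs moved in one direction. Of 20 listed chemokines, 7 had 3′UTR cDNAs, and 6 of these were called higher and none lower. Among them, Ccl7 (0 and 11 cDNAs) and Cxcl10 (0 and 13) met the minimum for the test through their 1 h cDNAs alone. Cxcl2, which attracts neutrophils, had 4 cDNAs at 0 h and 258 at 1 h, a ratio of 29.5 (11.4 to 109), or 17.4 with each site counted once. Its 4 sites at 0 h lay between 1098 and 1108 nt from the stop codon, and its 140 sites at 1 h between 883 and 1479 nt. These distances refer to the longest annotated Cxcl2 3′UTR, of 1494 nt. The study lists a shorter 3′UTR for Cxcl2, in which the distances would differ. Ccl2, which attracts monocytes, had 2 and 81 cDNAs, a ratio of 18.5 (4.96 to 155), or 11.4 with each site counted once. Ccl3 already had 54 cDNAs at 0 h and rose to 244, a ratio of 2.07 (1.53 to 2.83). Ccl4 had 7 and 67 cDNAs, a ratio of 4.38 (2.01 to 11.3). Ccl9 had 6 and 13 and was the chemokine tested but not called (ratio 0.990). With each site counted once, the call for Ccl3 was lost (adjusted p = 0.414, Fisher exact test), as it had 25 sites at 0 h and 67 at 1 h.

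**Figure D2:**
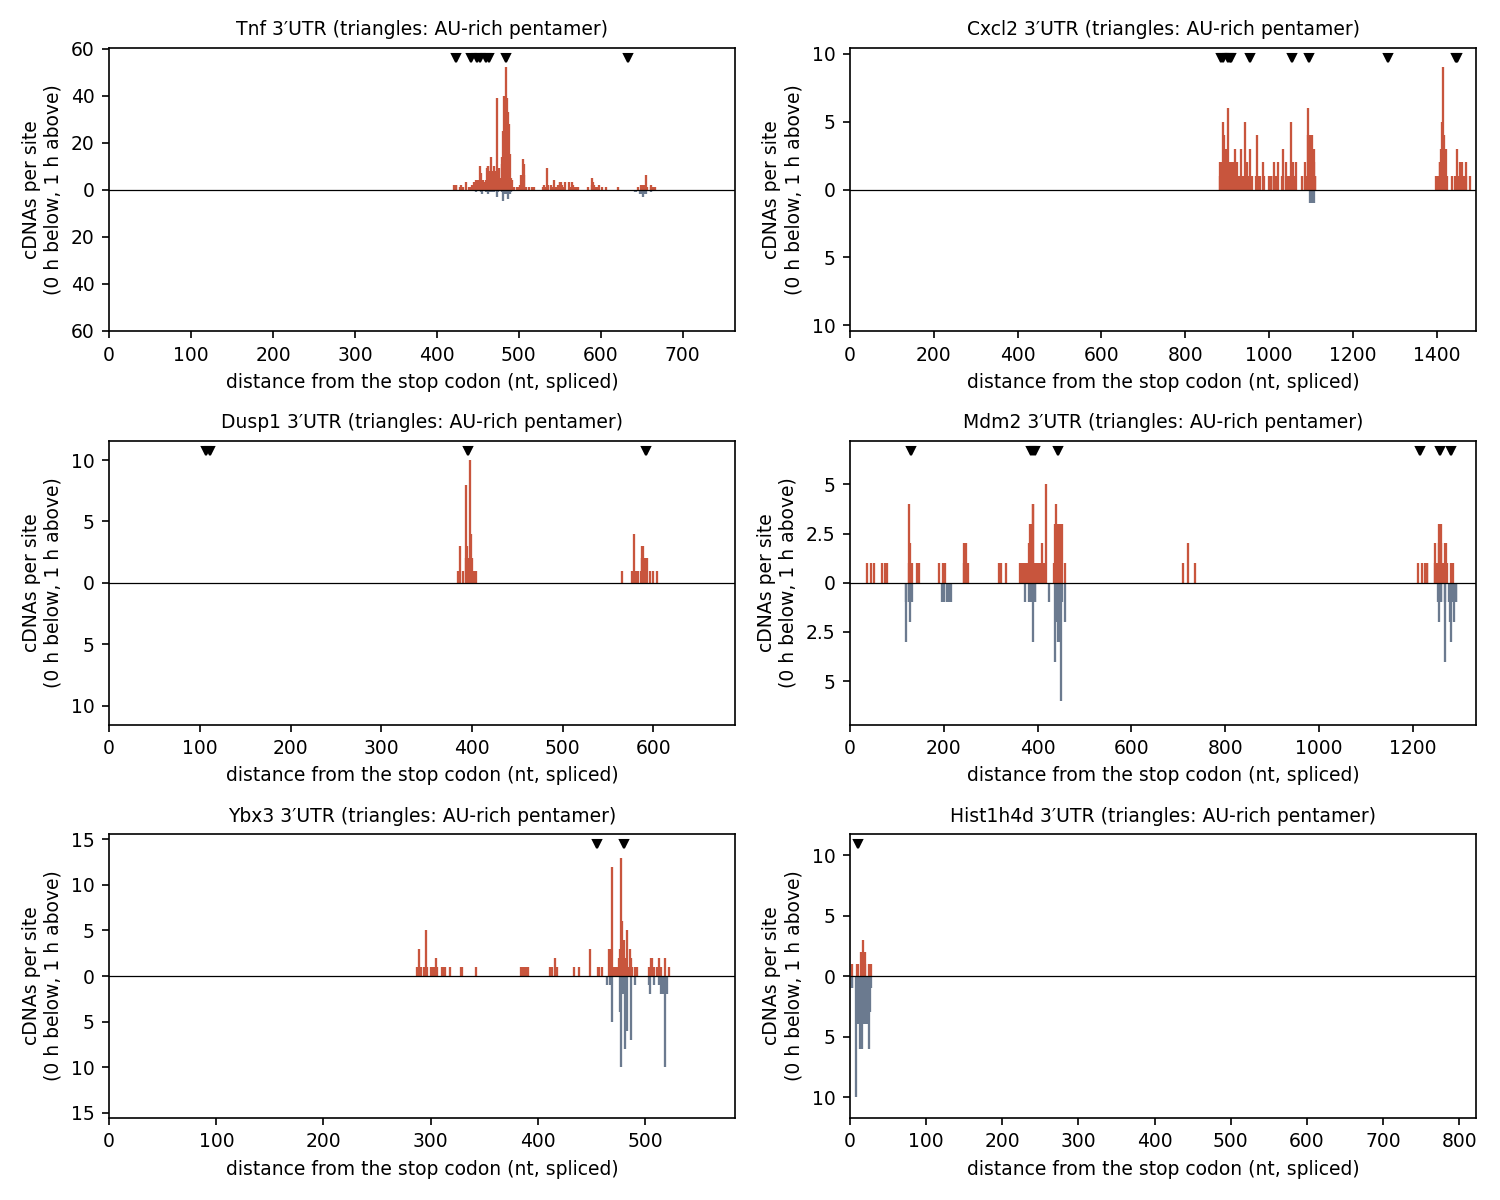
cDNAs per 3′UTR site (1 h upwards, 0 h downwards) against distance from the stop codon in nt, in the longest annotated 3′UTR, for 6 genes; triangles mark AUUUA. In Tnf the tallest 1 h sites (up to 52 cDNAs) stood between 473 and 488 nt. Dusp1 had 1 h sites alone, and Mdm2 and Ybx3 had sites in both lists. Hist1h4d had sites directly after the stop codon that were lower at 1 h.

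Several feedback regulators of the inflammatory response were called higher as well. Dusp1, a phosphatase that inactivates p38 and JNK, had 0 cDNAs at 0 h and 70 at 1 h, which is at least 10.7-fold higher against a limit of 3 cDNAs (adjusted p = 2.03e-10, Fisher exact test). Such a bound sets the 0 to 3 cDNAs and takes the other count as it is, whereas the exact 95% interval of the ratio starts at 8.45. Neither covers cDNAs at sites that missed the false-discovery threshold. Of those 70 cDNAs, 42 lay in the printed window, and 98.6% lay within 20 nt of an AUUUA. Ier3, an immediate early gene that restrains NF-κB signalling, had 6 and 87 cDNAs, a ratio of 6.63 (2.93 to 18.6), or 3.87 with each site counted once. Tnfaip3, the ubiquitin-editing inhibitor A20, had 4 and 55, a ratio of 6.29 (2.32 to 23.9). Nfkbiz had 0 and 12 cDNAs and was called higher at an adjusted p of 0.0496 (Fisher exact test), close to the threshold. It met the minimum for the test through its 1 h cDNAs alone. Nfkbia, the inhibitor IκBα, had 15 and 59 cDNAs and was not called (ratio 1.80, 1.01 to 3.41, adjusted p = 0.0795, Fisher exact test). Of 23 listed NF-κB inhibitors and feedback regulators, 8 had 3′UTR cDNAs, 4 were tested, and 3 were called higher and none lower. The untested members included Peli1, with 3 cDNAs at 0 h, and Sqstm1, with 4, which had 0 at 1 h. Of 20 listed MAP kinase phosphatases and members of the p38-MK2 pathway, 4 had 3′UTR cDNAs and Dusp1 was the one tested. Dusp1, too, met the minimum through its 1 h cDNAs alone.

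Several other 3′UTRs had no site at 0 h and many cDNAs at 1 h. Plk2, a kinase induced by p53 and by stress, had 0 and 41 cDNAs, at least 6.25-fold higher. Nlrp3, the inflammasome sensor, had 0 and 31, at least 4.72-fold higher. Gpnmb, a glycoprotein of macrophages, had 0 and 33 cDNAs spread over 27 sites, at least 5.03-fold higher. Tnfsf9, the ligand of the costimulatory receptor 4-1BB, had 0 and 26 cDNAs, at least 3.96-fold higher. The exact 95% intervals of these ratios start at 4.86 for Plk2, 3.62 for Nlrp3, 3.86 for Gpnmb and 3.00 for Tnfsf9. Like those of Dusp1, these bounds and intervals cover retained cDNAs alone. Fnbp1, a membrane-bending protein, had 0 and 35 cDNAs, but 31 of them stood at a single nucleotide with no AUUUA within 20 nt. Among immediate early genes, Fos had 3 and 24 cDNAs (ratio 3.66, 1.11 to 19.0, adjusted p = 0.0486, Fisher exact test) and Jund 0 and 12 (adjusted p = 0.0496, Fisher exact test). Junb had 3 and 23 cDNAs (adjusted p = 0.0653, Fisher exact test) and Jun 3 and 9. Of 31 listed immediate early transcription factors and response genes, 14 had cDNAs, 5 were tested, and 3 were called higher and none lower. These were Fos, Jund and Btg2 (0 and 11 cDNAs, adjusted p = 0.0486, Fisher exact test), all close to the threshold of 0.05. Jund and Btg2 met the minimum for the test through their 1 h cDNAs alone.

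Genes outside the inflammatory response were among the called genes too. Actb, the cytoplasmic β-actin, had 42 cDNAs at 31 sites at 0 h and 311 at 151 sites at 1 h, a ratio of 3.38 (2.45 to 4.79), and at 1 h 9.97% of its cDNAs lay within 20 nt of an AUUUA. Pfn1, the actin monomer-binding profilin, went the other way, with 74 and 70 cDNAs and a ratio of 0.432 (0.307 to 0.608). The call for Pfn1 was lost with each site counted once (ratio 0.744, adjusted p = 0.469, Fisher exact test). At 0 h, 73 of the 74 Pfn1 cDNAs lay in the printed run of U, and at 1 h 35 of 70 did. Of 28 listed actin cytoskeleton genes, 9 were tested, of which 5 were called higher and 1 lower. Over all 276 tested genes, 23.9% were called higher and 23.6% lower. Among the 5, Arpc2 (0 and 17 cDNAs) and Msn (0 and 16) met the minimum for the test through their 1 h cDNAs alone. Atp6v0b, a subunit of the proton pump that acidifies lysosomes, had 7 and 83 cDNAs (ratio 5.42, 2.52 to 13.9). Gdf15, a secreted stress factor, had 11 and 95 (ratio 3.95, 2.11 to 8.18), and Lpl, lipoprotein lipase, had 12 and 86 (ratio 3.28, 1.78 to 6.59). The call for Gdf15 was lost with each site counted once (ratio 2.48, adjusted p = 0.0845, Fisher exact test). Lars2, the mitochondrial leucyl-tRNA synthetase, had 71 and 291 cDNAs (ratio 1.87, 1.44 to 2.46). No Lars2 cDNA lay near an AUUUA, 77 of its 1 h cDNAs stood at a single nucleotide, and the call was lost when each site counted once (ratio 1.05).

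Some mRNAs that were prominent in the resting cells were not called in either direction. Mdm2, the ubiquitin ligase that degrades p53, had most 3′UTR cDNAs of all genes at 0 h, 78, and 149 at 1 h, a ratio of 0.873 (0.660 to 1.16, adjusted p = 0.465, Fisher exact test). Ybx3, a Y-box RNA-binding protein, had 71 and 134 cDNAs (ratio 0.863, 0.642 to 1.17). Spp1, osteopontin, had 47 and 97 (ratio 0.943, 0.659 to 1.37), and neither Mdm2 nor Ybx3 nor Spp1 was called. Their intervals reached from 0.642 to 1.37, which does not show that the shares were alike. With all cDNAs of the lists as the reference, Mdm2 and Ybx3 were called lower, with ratios of 0.646 and 0.639. With sites of at least 2 cDNAs, Ybx3 and Spp1 were called lower (ratios 0.548 and 0.583), and with each site counted once the ratio of Ybx3 was 1.65 (adjusted p = 0.0875, Fisher exact test). Most Mdm2 cDNAs lay within 20 nt of an AUUUA, 87.2% at 0 h and 77.9% at 1 h. Cdkn1a, the cell cycle inhibitor p21, had 41 and 46 cDNAs and was called lower (ratio 0.513, 0.329 to 0.801). Of 22 listed p53 pathway and growth arrest genes, 11 had cDNAs and 5 were tested, of which Plk2 was called higher and Cdkn1a lower. Plk2 met the minimum for the test through its 1 h cDNAs alone. Rnf225 had 61 and 90 cDNAs, all within an exon of the small nuclear RNA gene Gm26325 inside its 3′UTR. The window was shared by 3 genes other than Rnf225, Gm26325 among them, so these cDNAs cannot be assigned to the Rnf225 mRNA. Its ratio of 0.674 (0.482 to 0.949, adjusted p = 0.0486, Fisher exact test) was called lower. The call was lost with each site counted once (ratio 0.496, adjusted p = 0.267), with a minimum of 5 cDNAs (adjusted p = 0.0714) and with Tnf left out of the reference (adjusted p = 0.0984, all Fisher exact tests).

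**Figure D3:**
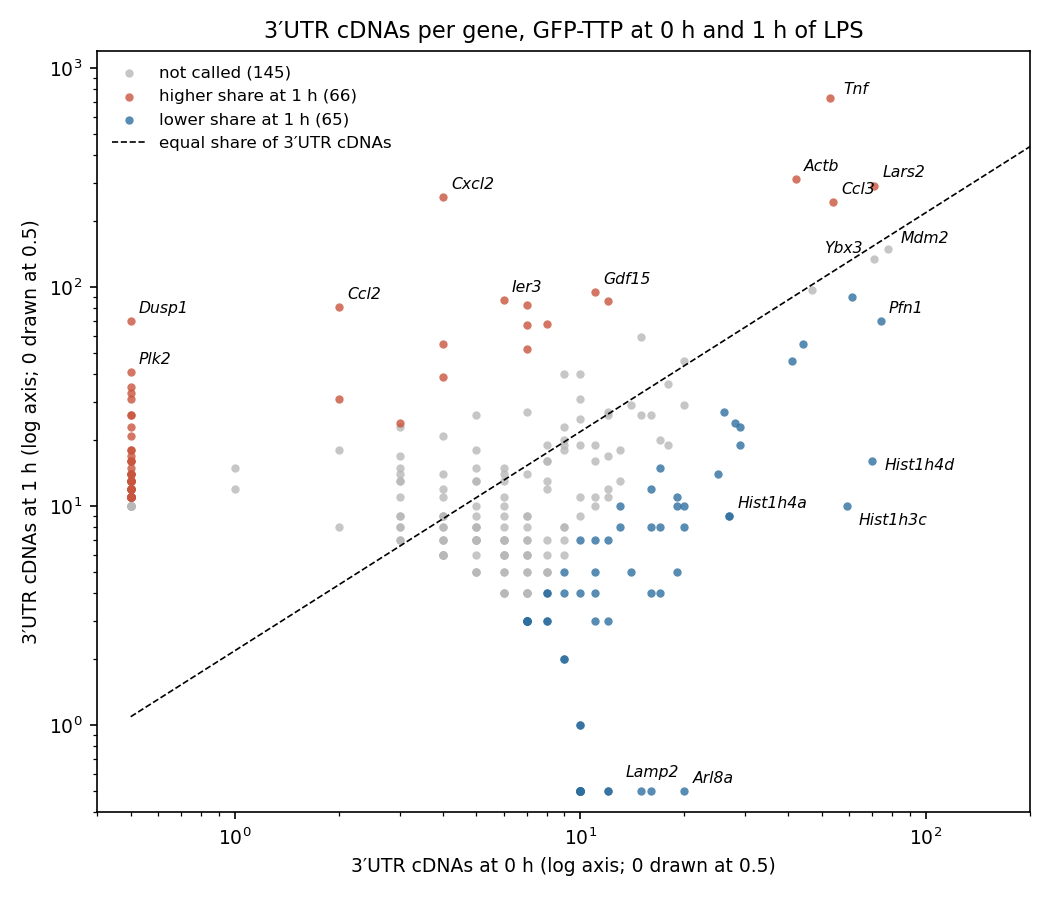
3′UTR cDNAs per gene at 0 h (x) and 1 h (y) on log axes for the 276 tested genes, with counts of 0 drawn at 0.5 and the dashed line at an equal share of 3′UTR cDNAs. Tnf, Cxcl2, Ccl2 and Dusp1 lay far above the line among the 66 genes called higher, Mdm2 and Ybx3 lay near it, and Hist1h4d, Hist1h3c and Arl8a lay below it among the 65 called lower.

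The histone mRNAs Hist1h4d and Hist1h3c had the lowest p-values among the genes with a lower share. Replication-dependent histone mRNAs carry no poly(A) tail and end in a conserved stem-loop shortly after the stop codon. Hist1h4d had 70 cDNAs at 0 h and 16 at 1 h, a ratio of 0.104 (0.0566 to 0.182, adjusted p = 1.01e-19, Fisher exact test). Hist1h3c had 59 and 10 cDNAs (ratio 0.0775, 0.0353 to 0.153), Hist1h4a 27 and 9 (ratio 0.152, 0.0630 to 0.334), and Hist1h4j 8 and 0, which was below the minimum for the test. Of 54 listed histone genes, 4 had 3′UTR cDNAs, 3 were tested, and all 3 were called lower. The 1 h list pooled more libraries than the 0 h list, yet held 35 histone 3′UTR cDNAs against 164. The sites lay within 28 nt of the stop codon in both lists. With each site counted once, the ratios were 0.273, 0.283 and 0.289 for Hist1h4d, Hist1h3c and Hist1h4a, and all 3 were still called lower. The printed windows, which occur in no other annotated gene, held 84.3% to 100% of the 3′UTR cDNAs of these genes.

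Several other mRNAs had sites at 0 h and no cDNA at 1 h. Arl8a, a GTPase that positions lysosomes, had 20 cDNAs at 17 sites at 0 h and 0 at 1 h, which is at least 14.6-fold lower (adjusted p = 2.85e-09, Fisher exact test). Lamp2, a lysosomal membrane protein, had 16 and 0, at least 11.7-fold lower. Dkc1, the pseudouridine synthase dyskerin, had 15 and 0, at least 10.9-fold lower, and all 15 lay in the printed U-rich window. Larp1, which binds mRNAs of the translation machinery, had 12 and 0, and Susd6 had 12 and 0, each at least 8.75-fold lower. The exact 95% intervals of the ratio, 1 h over 0 h, end at 0.0926 for Arl8a, 0.119 for Lamp2, 0.127 for Dkc1, and 0.165 for Larp1 and Susd6. These bounds and intervals also leave out cDNAs at 1 h sites that missed the false-discovery threshold. Cstb, an inhibitor of lysosomal cathepsins, had 27 and 9 (ratio 0.152, 0.0630 to 0.334). Zfp36l2, a paralogue of TTP, had 29 and 23 cDNAs and was called lower (ratio 0.363, 0.200 to 0.649), whereas Zfp36 itself had 4 and 21 and was not called (ratio 2.40, 0.810 to 9.62). The CDS of Zfp36, which the GFP-TTP construct shares with the disrupted gene, had 5 and 7 cDNAs. Of 14 listed regulators that bind AU-rich elements or stem-loops, 5 were tested, and Zfp36l2 was the one called. Of 17 listed macrophage markers, 3 were tested, of which 2 were called higher and 1 lower, beside 23.9% and 23.6% of all 276 tested genes. Lyz2 (lysozyme) had 8 and 68 cDNAs and Ptprc (CD45) 0 and 12, and both were higher. The call for Ptprc lay close to the threshold (adjusted p = 0.0496, Fisher exact test), and Ptprc met the minimum for the test through its 1 h cDNAs alone. The transcription factor Cebpb had 19 and 10 cDNAs and was lower (ratio 0.241, 0.0999 to 0.544).

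The gene groups thus differed in direction and in how many members could be tested. For the remaining groups, 7 of 25 interleukins and secreted factors had 3′UTR cDNAs, 5 were tested, and 2 (Gdf15 and Lpl) were called higher, while Plau, urokinase, had 20 and 29 cDNAs (ratio 0.663, 0.362 to 1.24). Of 31 deadenylation and decay factors, 9 had 3′UTR cDNAs and 1 was tested. This was Pabpc1, the poly(A)-binding protein, with 0 and 13 cDNAs, and it was called higher. Pabpc1 met the minimum for the test through its 1 h cDNAs alone, so its call gives no direction for the group. Of 80 cytosolic ribosomal protein genes, 3 had 3′UTR cDNAs (8 cDNAs at 0 h and 6 at 1 h) and 0 reached the minimum for the test. The 27 targets that the study listed were chosen on these samples and are no independent evidence. Among them 18 were called higher and 3 lower, and their median ratio was 3.20 with counts of 0 set to 3, against 0.791 over all tested genes.

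**Figure D4:**
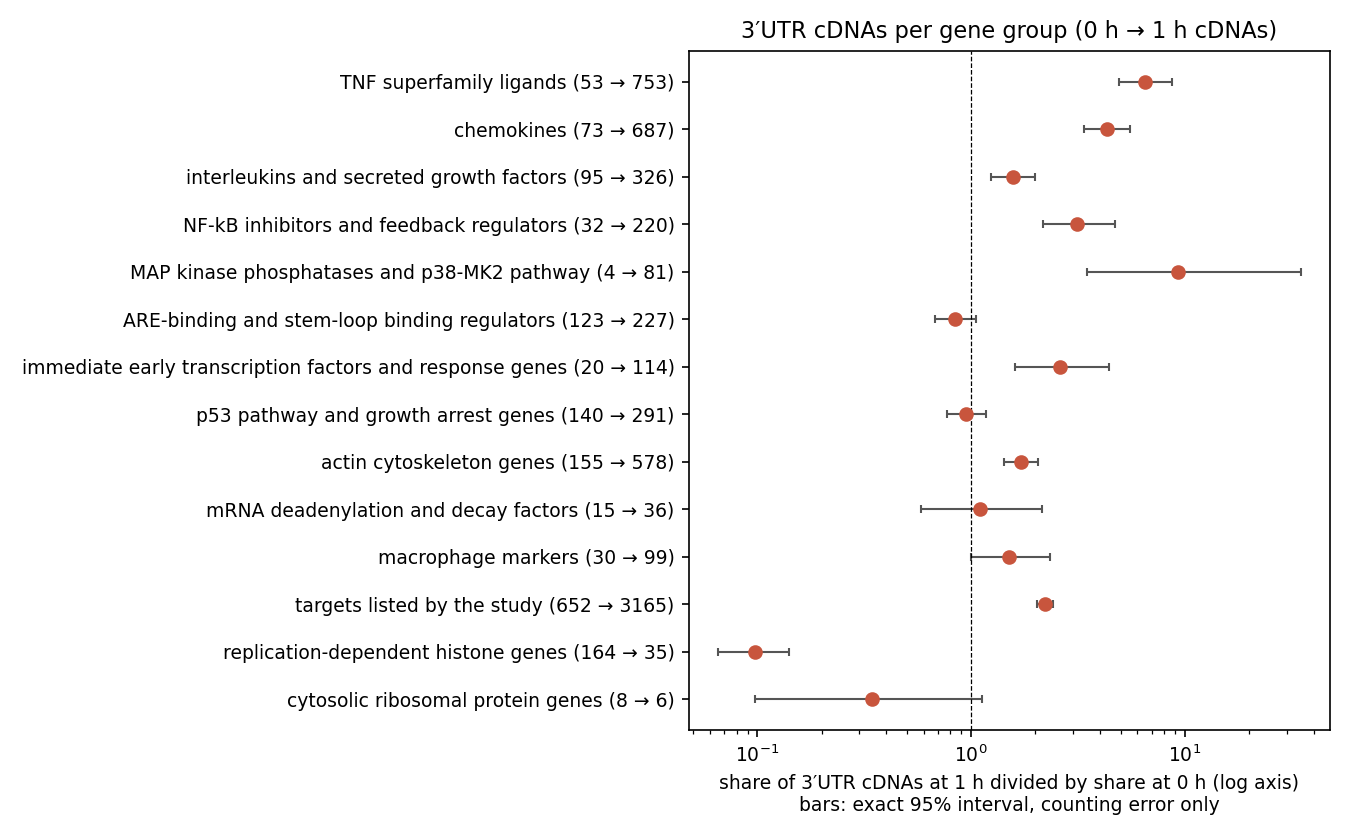
Share of 3′UTR cDNAs at 1 h divided by the share at 0 h (log axis, exact 95% interval, counting error) for the summed cDNAs of each gene group, with both sums in brackets. TNF ligands (ratio 6.49) and chemokines (4.3) lay above 1 (the TNF ligand sum is Tnf but for 26 cDNAs of Tnfsf9 at 1 h), histone genes (0.0976) lay below 1, and the p53 pathway group (0.95) and the regulators that bind AU-rich elements (0.844) had intervals that included 1.

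Many 3′UTR sites were also present in only a single list. Of the 3359 3′UTR sites at 0 h, 1521 (45.3%, Wilson interval 43.6% to 47.0%) had a 1 h site within 15 nt, and 1838 were lost. Of the 6775 3′UTR sites at 1 h, 1837 (27.1%, 26.1% to 28.2%) had a 0 h site within 15 nt, and 4938 were gained. Gained sites lay in gained genes (3291 sites) and in kept genes (1647 sites). At the same nucleotide, 748 sites were shared. Kept sites were the stronger ones, with 2.02 cDNAs per site at 1 h against 1.18 for gained sites. For comparison, 78.7% of the 0 h sites in non-coding exons and 31.3% of those in introns were kept within 15 nt.

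Kept sites had AUUUA nearby more often than gained or lost sites. At 1 h, AUUUA lay wholly within 20 nt of 57.2% of kept sites (1051 of 1837, Wilson interval 54.9% to 59.5%) and of 30.5% of gained sites (1505 of 4938, 29.2% to 31.8%), a difference of 26.7 points (24.1 to 29.3). At 0 h, it lay near 53.5% of kept and 39.2% of lost sites, a difference of 14.3 points (10.9 to 17.6). Over all positions of the same 3′UTRs, the share was 10.2% for kept and 8.47% for gained sites at 1 h, and 9.30% for kept and 8.38% for lost sites at 0 h, so every class lay above its own background. Weakly covered sites, with at most 2 cDNAs within 15 nt, made up 3.76% of kept and 24.8% of gained sites at 1 h, and 3.09% of kept and 10.8% of lost sites at 0 h. With at least 5 cDNAs required there, the differences were 21.6 and 12.6 points. Counting each gene once gave 56.4% for kept and 29.5% for gained sites at 1 h. Sites of the same gene share their sequence, so the intervals are too narrow as errors over genes. The longer element UAUUUAU, which contains AUUUA, lay near 33.4% of kept and 17.8% of gained sites at 1 h, against 3.91% and 2.53% of all positions.

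**Figure D5:**
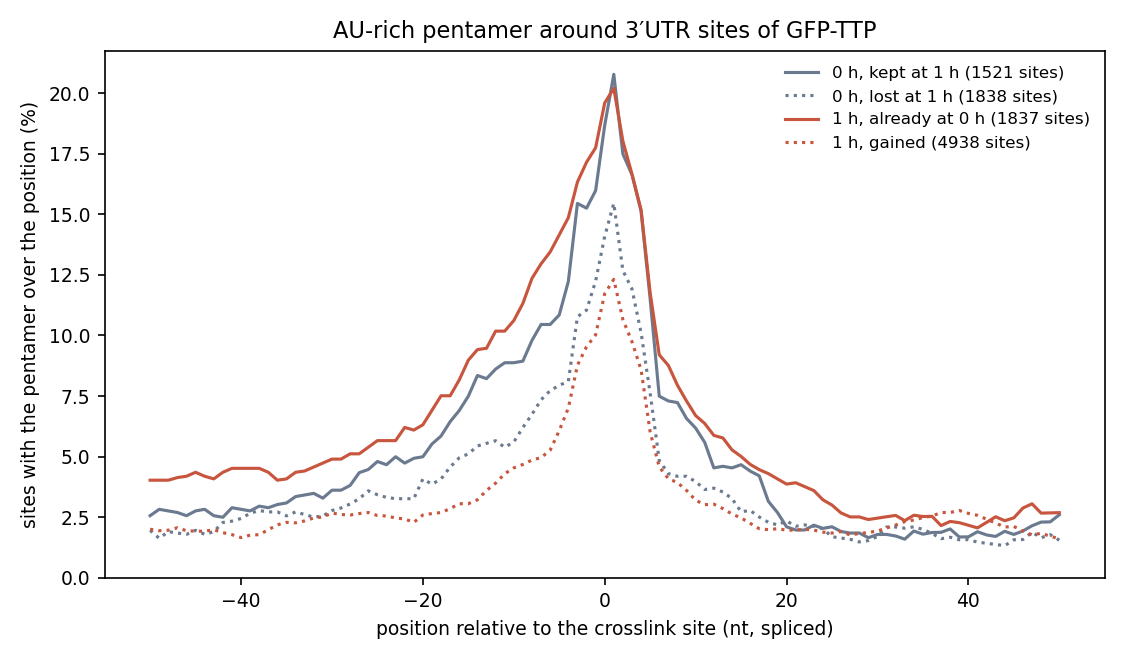
Percentage of 3′UTR sites at which AUUUA covers a given position, from 50 nt upstream to 50 nt downstream of the crosslink site in the spliced transcript, for 4 classes of sites. All 4 curves peak 1 nt downstream of the site, at 20.8% and 20.2% for sites kept at 0 h and 1 h, at 15.5% for lost sites and at 12.3% for gained sites.

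Over all 3′UTR sites, AUUUA lay near 45.7% at 0 h and 37.7% at 1 h, a difference of -7.97 points (-10.01 to -5.93). That difference depended on weakly covered sites. Of the 3′UTR sites, 7.32% at 0 h and 19.1% at 1 h had at most 2 cDNAs in total within 15 nt, and with at least 5 cDNAs required there, the difference was -1.72 points with an interval that included 0. The crosslinked nucleotide was U at 64.8% of kept and 62.0% of lost sites at 0 h, and at 63.2% of kept and 63.9% of gained sites at 1 h, against 30.9% U over all positions of these 3′UTRs.

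Sites near the 3′ end of the mRNA were less frequent at 1 h. At 0 h, 23.0% of 3′UTR sites (772 of 3359) lay in the last 100 nt of the annotated 3′UTR, where an even spread would place 11.5%. At 1 h, 12.8% did (868 of 6775), where an even spread would place 11.7%, a difference of -10.2 points (-11.8 to -8.56). Among the 1 h sites, 21.1% of kept and 9.74% of gained sites lay there. At 0 h, 24.3% of kept and 21.9% of lost sites did, a difference of 2.33 points whose interval included 0 (-0.522 to 5.21). Counting each gene once gave 23.5% at 0 h and 12.6% at 1 h.

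Sites of the TTP-AA mutant, whose MK2 phosphorylation sites are replaced by alanine, are given beside these values, and the difference between the proteins was not tested except for the 3′UTR share of the list. The TTP-AA lists held 6008 3′UTR cDNAs at 0 h and 93510 at 1 h, so shares are given. In them, Tnf had 0 cDNAs at 0 h and 1673 at 1 h, which is 179 per 10000 3′UTR cDNAs. Cxcl2 had 0 and 2536 (271 per 10000), and Dusp1 0 and 214 (22.9 per 10000). Mdm2 had 79 and 1674 TTP-AA cDNAs, or 131 and 179 per 10000, beside 179 and 156 per 10000 for TTP. Hist1h4d had 251 and 217, or 418 and 23.2 per 10000, a lower share at 1 h as for TTP (160.2 and 16.7 per 10000). Of the genes with 0 TTP cDNAs at 1 h, Arl8a had 24 and 103 TTP-AA cDNAs (39.9 and 11.01 per 10000), Lamp2 0 and 118 (12.6 per 10000 at 1 h) and Dkc1 5 and 79 (8.32 and 8.45 per 10000). Of the 372 genes lost between the TTP lists, 307 (82.5%) had a TTP-AA 3′UTR site at 1 h. So had 757 (81.5%) of the 929 gained and 360 (98.4%) of the 366 kept genes. In the TTP-AA 0 h list, 35.8% of lost, 17.7% of gained and 54.4% of kept genes had a 3′UTR site. The TTP-AA lists differed in reach, with 3′UTR sites in 894 genes at 0 h and 4468 at 1 h, and its part in these shares was not tested. The header of the TTP-AA 1 h list carried the same peak-calling mark. The share of TTP-AA 3′UTR sites in the last 100 nt was 32.8% at 0 h and 18.2% at 1 h, and AUUUA lay near 33.7% and 34.6% of them.

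Outside mRNA exons, many small nuclear RNAs and the Y RNAs had a lower share at 1 h, and the chromosome 17 locus a higher one. Over all regions, 1311 loci (genes, or bins of 1000 nt outside genes) were tested with the Fisher exact test. Of these, 226 (17.2%) were called higher and 442 (33.7%) lower. Among the 1311 loci, 254 had 0 cDNAs at 0 h and 71 had 0 at 1 h, and these met the minimum through a single list. Rny3 and Rny1, which encode Y RNAs, had 377 and 236 cDNAs at 0 h and 121 and 83 at 1 h, with ratios of 0.109 (0.0877 to 0.134) and 0.119 (0.0915 to 0.153). Rn7sk, the RNA that holds the elongation factor P-TEFb inactive, had 190 and 136 (ratio 0.242, 0.193 to 0.303). Of 96 tested genes for small nuclear RNAs, 12 were called higher and 60 lower, and these genes are near-identical copies whose single counts are uncertain. Malat1, a nuclear long non-coding RNA, had 3 cDNAs at 0 h and 716 at 1 h, a ratio of 80.8 (27.5 to 393). Among the intergenic loci, 3 bins, on chromosomes 11, 3 and 2, were among the 6 loci with the lowest p-values in the higher direction, and the first of them (chromosome 11, 109011666 to 109011999, minus strand) had 377 and 4154 cDNAs. With each site counted once, 110 loci were called higher and 44 lower.

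Intron cDNAs were concentrated at few spots. Among 223 genes tested on their intron cDNAs, 48 (21.5%) were called higher and 54 (24.2%) lower. In 136 of the 223 genes, at least 90% of the cDNAs fell in a single bin of 1000 nt. Of the 223 genes, 67 had 0 intron cDNAs at 0 h and 9 had 0 at 1 h. Cdk8, a Mediator kinase, had 290 intron cDNAs at 0 h and 2527 at 1 h (ratio 3.23, 2.86 to 3.66), with 98.0% of them in 1 bin. Cmss1 had 303 and 1797 (ratio 2.20, 1.95 to 2.49), Gm19951 113 and 679 (ratio 2.23, 1.82 to 2.75), and Kcnip1 56 and 632 (ratio 4.19, 3.18 to 5.61). Pde1c, a phosphodiesterase, had 190 and 239 (ratio 0.467, 0.384 to 0.568), and Zfp791 had 118 and 122 (ratio 0.384, 0.295 to 0.498). With each site counted once, 27 genes were called higher and 5 lower.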

How the data were processed

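The authors removed PCR duplicates by random barcodes, mapped unique reads to GRCm38 (mm10) with Bowtie (both named in the submitters' processing notes), pooled the libraries of a group and kept sites past a false-discovery threshold of the iCount tool. Per the file headers, each deposited score counts unique cDNAs at a nucleotide and is negative on the minus strand. A score was used as its absolute value, with no further normalisation, and the depth was 33587 and 99263 cDNAs.

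Sites were assigned on their strand in the order 3′UTR, CDS, 5′UTR, non-coding exon, intron and intergenic, by GENCODE M21, which is later than the annotation of the authors. Fisher exact tests (at least 10 cDNAs over both lists, adjusted p below 0.05), ratios with exact conditional intervals, and Wilson and Newcombe 95% intervals were computed with scipy 1.17.1 (Python 3.11.15, pandas 2.3.3, numpy 2.4.6, matplotlib 3.10.9). Scripts were tested on simulated data. Motifs were AUUUA and UAUUUAU, and, added later, AAUAAA and UGUGU. The pooled scores exclude replicate tests. Labels do not say whether samples were separate cultures.

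The lists, rules and gene groups were chosen with earlier results of these data known. Named genes were the 10 genes that led each list by 3′UTR cDNAs, the 10 lowest p-values in each direction, the 5 leading gained and lost genes, the 6 leading loci in each direction, the 5 leading intron genes of each list, and up to 4 leading members of each group. Other named genes were chosen after their values were seen.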

Additional observations from a re-analysis of the deposited data

Results flagged for a closer look

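Counted in cDNAs, the 3′UTR share of the list moved in opposite directions for the 2 proteins between 0 h and 1 h. It fell by 3.38 points in the TTP lists and rose by 35.2 points in the TTP-AA lists. The change was 38.6 points larger for TTP-AA (interval 37.9 to 39.2, combined from Newcombe intervals, counting error alone). With each site counted once, the share rose for both proteins. It went from 21% to 26.1% for TTP, and for TTP-AA 4339 of 16353 sites at 0 h and 61183 of 86497 at 1 h lay in 3′UTRs. The chromosome 17 locus took 14.8% and 28.7% of the TTP cDNAs at 0 h and 1 h, and 11.2% and 10.5% of the TTP-AA cDNAs, and its part in the difference was not tested.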

How the results depend on the processing

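No value per library was given, so no library could be left out and no replicate error was had. No paired analysis was possible because the files hold 1 pooled column per group. The 3′UTR test called 66 genes higher and 65 lower. It called 36 and 31 with each site counted once, 24 and 23 with sites of at least 2 cDNAs, 43 and 130 with a minimum of 5 cDNAs, and 26 and 27 with a minimum of 20. With all cDNAs as reference 32 were called higher, and without the chromosome 17 locus in that reference 36. No gene called in a direction was called in the opposite one under any of these alternatives. With each site counted once, the locus test gave 110 higher and 44 lower (against 226 and 442), and the intron test 27 and 5 (against 48 and 54). The 3′UTR share difference turned to 5.10 points with each site counted once. Without the chromosome 17 locus, the differences for non-coding exons, introns and intergenic sequence turned to -5.05, 1.78 and 2.71 points. With at least 5 cDNAs within 15 nt (an alternative chosen after seeing the data, as were those without histone genes and without sites in non-coding exons), introns and intergenic sequence turned to 0.824 and 0.951 points, and the AUUUA difference between all 1 h and 0 h sites shrank to -1.72 points. Counting each gene once, that difference was -11.8 points. With at least 5 cDNAs in a list, 294 genes were gained, 137 kept and 136 lost. The kept share of 0 h genes was 45.1% when the 1 h list was thinned. The kept shares of sites, 45.3% at 0 h and 27.1% at 1 h, were 22.3% and 11.04% at the same nucleotide, 50.01% and 33.5% within 50 nt, and 48.5% and 36.3% for sites of at least 2 cDNAs. The cause of these shifts was not tested. The difference in the last 100 nt kept its sign and its call under all 3 alternatives tried. Depth limits genes with few cDNAs, since 0 allows up to 3 by counting error, and cDNAs at sites below the false-discovery threshold are missing.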

Other observations

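Transcripts with sites in the coding sequence or 5′UTR were chosen here after their values were seen. Fth1, the heavy chain of the iron store ferritin, led the CDS at 1 h, with 14 cDNAs at 8 sites at 0 h and 130 at 71 sites at 1 h. Its 5′UTR had 0 cDNAs at 0 h and 55 at 37 sites at 1 h. The CDS of Actb had 0 and 45 cDNAs and that of Lyz2 0 and 40, both over more than 30 sites, whereas the 61 cDNAs of Washc1 at 1 h stood at 2 sites. In the 5′UTR, Pabpc1 had 26 and 28 cDNAs and led the 0 h list, and Dennd4a had 0 and 56, all 56 at 2 sites.

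Other motifs than AUUUA also differed between classes of 3′UTR sites. The polyadenylation hexamer AAUAAA lay wholly within 20 nt of 7.24% of lost and 4.01% of kept sites at 0 h, against 4.58% and 6.08% of all positions of the same 3′UTRs. At 1 h it lay near 2.41% of gained and 2.18% of kept sites, against 5.05% and 5.91%. UGUGU, which is no AU-rich element, lay near 11.3% of gained sites (Wilson interval 10.5% to 12.2%) and 6.59% of kept sites (5.54% to 7.81%) at 1 h, against 8.09% and 7.51% of all positions. These shares were computed after the AUUUA values were seen and are given as a description.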
